A study of Mus musculus with 36 samples.

Results

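The genes described here encode glial and neural intermediate filaments, the rope-like proteins of the cytoskeleton. They were Vim (vimentin), Gfap (glial fibrillary acidic protein), Prph (peripherin), Nefl and Nefm (the light and medium neurofilament subunits), Ina (internexin), Nes (nestin) and Synm (synemin). They were chosen by name, as the 8 rows of a table of 52636 genes whose Ensembl identifiers map to these symbols. All 8 were found.

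Intermediate filament proteins pair through a central rod and assemble side by side into filaments without the help of nucleotides, and their mixture differs from cell type to cell type. Vimentin, peripherin and GFAP can each form filaments, whereas nestin and synemin have long tails and join filaments built by vimentin or desmin. Neurofilaments set the calibre of axons, and GFAP and nestin are common labels of glia, including the non-myelinating and terminal Schwann cells of muscle.

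The libraries came from S100β-GFP;NG2-dsRed transgenic mice, in which a S100b transgene drives GFP and a Cspg4 transgene drives dsRed (Cspg4 encodes NG2). All 3 cell types came from mice carrying both transgenes. Cells of diaphragm, pectoralis, forelimb and hindlimb muscle of juvenile mice were dissociated and sorted on both colours into S100β-GFP+;NG2-dsRed+ perisynaptic Schwann cells (PSCs), S100β-GFP+ cells and NG2-dsRed+ cells. The muscles of a single mouse gave 1 replicate. RNA was sequenced in bulk after amplification for low input, and counts for 27 of 36 labelled libraries were used, 9 of PSCs, 8 of S100β-GFP+ cells and 10 of NG2-dsRed+ cells. The methods state that failed libraries were removed, and the design text in the labels gives 7 S100β-GFP+ replicates where the table has 8. Which one would be left out is not known here, so all 8 were used. The ages in the labels start at postnatal day 15 and end between day 21 and day 46 in steps that follow the sample number, and were not used.

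Total counts per library ran from 5221655 to 9592875, of which 3.64% to 40% fell on Lars2, Gm23935 and Gm15564. The genes that drive the reporters were checked first. Cspg4 was at 686 ± 132 CPM (a gene's count relative to the TMM-scaled library total, mean ± SD over libraries) in PSCs, 70.5 ± 41.7 in S100β-GFP+ libraries and 663 ± 137 in NG2-dsRed+ cells, and S100b was at 254 ± 197, 29.2 ± 10.1 and 6.51 ± 4.88 CPM. The summed level of 10 Schwann cell lineage markers was 3535 to 4453 CPM in PSCs, 673 to 2070 in S100β-GFP+ libraries and 105 to 473 in NG2-dsRed+ cells. The S100β-GFP+ libraries, which the study calls Schwann cells, also held 18354 to 41788 CPM over 6 fibroblast markers and 1073 to 10301 CPM over 6 macrophage and leukocyte markers, against 746 to 2868 and 34.1 to 568 CPM in PSCs. S100β-GFP+ libraries 17 and 22 had the most endothelial and pericyte marker RNA of their group and the least macrophage marker RNA. Libraries 22, 17 and 14 had 38568, 29103 and 25890 genes with a count, against 19669 to 23292 in the rest of that group. PSC library 18 had the fewest of all 27 libraries, 14616. The bearing of this on members with few counts was not tested. Values without libraries 14, 17 and 22 are given for some of the results they bear on. In bulk RNA, fewer cells of a type and less RNA per cell cannot be told apart.

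Vimentin made up nearly all of the filament RNA of these 8 genes in every cell type, nestin was highest in NG2-dsRed+ cells, synemin was lowest in S100β-GFP+ cells, and neurofilament RNA was highest in S100β-GFP+ cells. GFAP RNA was at trace level in all 3. The filter on low counts kept Vim, Nes, Synm and Nefm, and the other 4 members fell below it. Of the 4 that could be tested, 3 separated PSCs from S100β-GFP+ cells (1 higher and 2 lower in PSCs), beside 47% of all 15330 genes tested in that comparison (22.9% higher and 24.1% lower). Between PSCs and NG2-dsRed+ cells 2 of the 4 differed, both lower in PSCs, beside 44% of all genes (20.9% higher and 23.1% lower). Between S100β-GFP+ and NG2-dsRed+ cells 3 of the 4 differed (1 higher and 2 lower in S100β-GFP+ cells), beside 33.3% of all genes (18.1% higher and 15.2% lower). These shares of called members are descriptions, since a gene that passed the filter through its level in a single cell type had to differ.

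**Figure D1:**
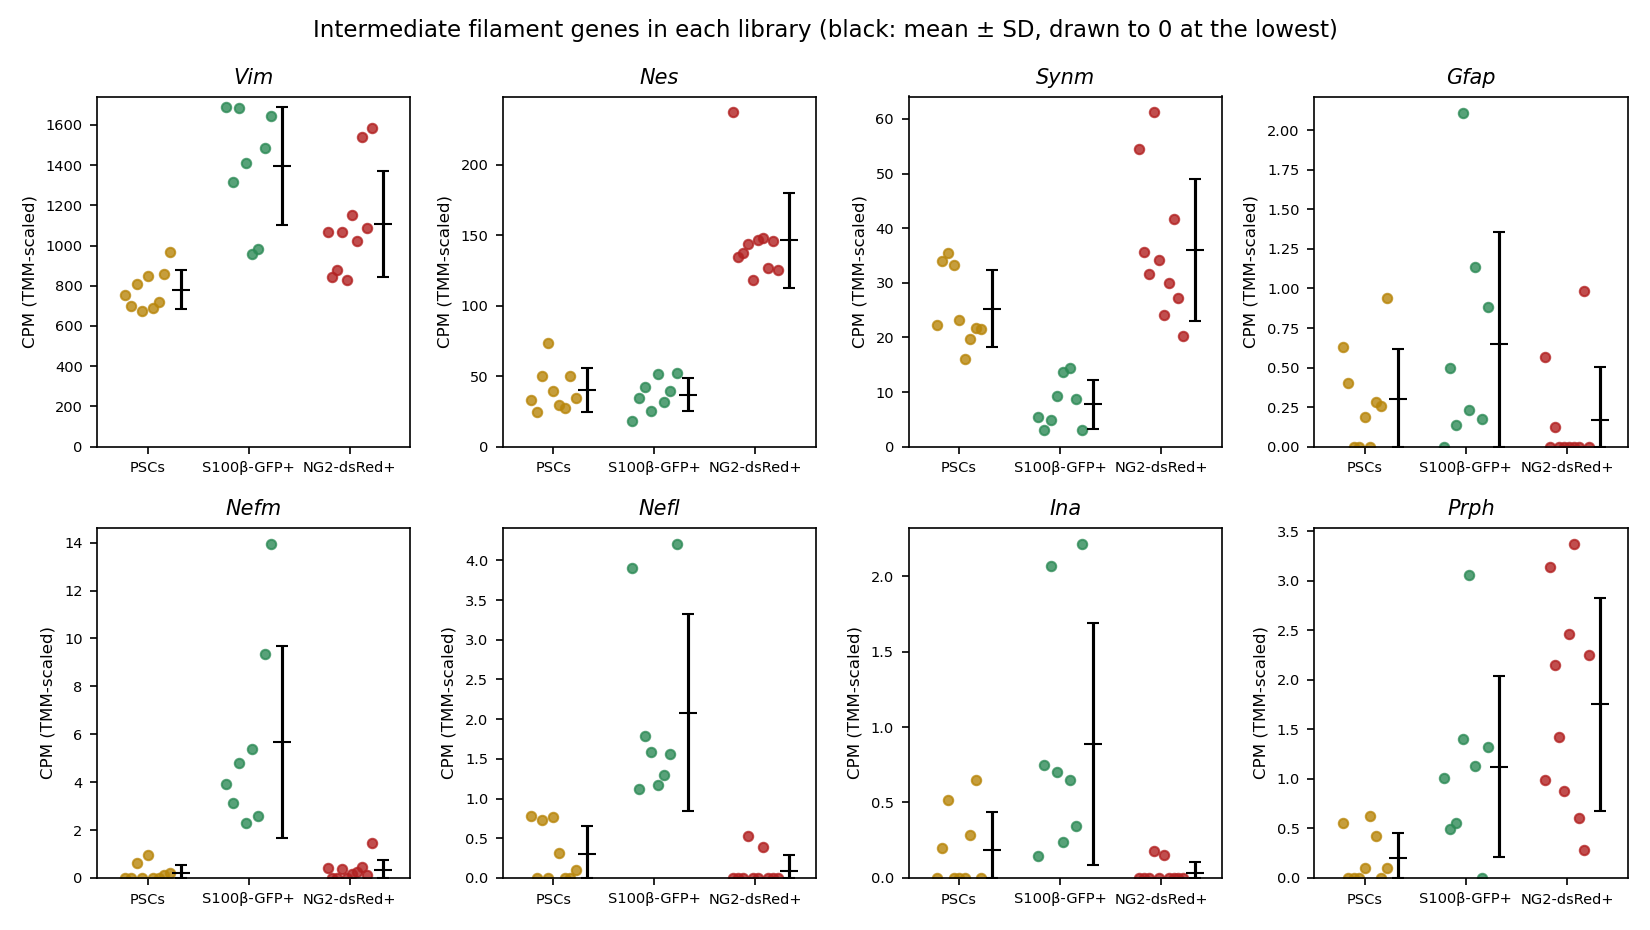
Each panel plots the TMM-scaled CPM (vertical axis, linear from 0) of a filament gene in 9 PSC, 8 S100β-GFP+ and 10 NG2-dsRed+ libraries (1 point a library), with the mean ± SD in black. Vim reached 676 to 1686 CPM over all libraries and Nes 118 to 237 CPM in NG2-dsRed+ cells, whereas Gfap, Nefl, Ina and Prph stayed at or under 4.2 CPM in every library.

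Levels of different genes were compared per kilobase of merged exon. On this scale Vim was at 164 ± 20.6 CPM per kb in PSCs, Nes at 6.27 ± 2.41 and Synm at 3.18 ± 0.891, and the other members had means of 0.0368 (Nefm) to 0.1 (Prph) CPM per kb there. Vim supplied 90.1% to 96.0% of the summed CPM per kb of the 8 members in PSCs, 94.1% to 98.4% in S100β-GFP+ libraries and 83.5% to 93.4% in NG2-dsRed+ cells. Nes came next in each cell type, with means of 6.27, 5.76 and 22.8 CPM per kb. In S100β-GFP+ cells Synm and Nefm followed at 0.983 ± 0.564 and 0.981 ± 0.695 CPM per kb, a gap smaller than the spread of either.

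Vim (ENSMUSG00000026728, GRCm38 chr2:13573927-13582826, plus strand) encodes the common filament protein of mesenchymal cells and immature glia. The lowest, median and highest of its levels were 676, 752 and 967 CPM in PSCs, 960, 1448 and 1686 CPM in S100β-GFP+ libraries and 830, 1068 and 1583 CPM in NG2-dsRed+ cells. PSCs had the lowest levels, though the top PSC library was just above the bottom S100β-GFP+ library and within the lower part of the NG2-dsRed+ range. Vim was 1.79-fold lower in PSCs than in S100β-GFP+ cells (log2 fold change -0.84, SE 0.16, edgeR adjusted p = 7.73e-05). Against NG2-dsRed+ cells it was 1.42-fold lower in PSCs (log2 fold change -0.50, SE 0.15, edgeR adjusted p = 0.00818). S100β-GFP+ and NG2-dsRed+ cells were not separated (log2 fold change 0.34, 95% interval 0.02 to 0.66, edgeR adjusted p = 0.0998).

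The fall of Vim in PSCs against S100β-GFP+ libraries ran from -0.91 to -0.76 on the log2 scale when single libraries were left out and kept its call each time, whereas both comparisons with NG2-dsRed+ cells hung on single libraries. NG2-dsRed+ libraries 28 and 35, at 1538 and 1583 CPM, were far above the next of that group at 1153 CPM. Without library 28 the fall of Vim in PSCs against NG2-dsRed+ cells was -0.37 on the log2 scale (edgeR adjusted p = 0.055), and without library 35 it was -0.36 (edgeR adjusted p = 0.0578). The comparison of S100β-GFP+ with NG2-dsRed+ cells changed its call under several settings. Without library 28 the log2 fold change was 0.44 with an edgeR adjusted p of 0.0349, without library 35 it was 0.44 with 0.0334, and without S100β-GFP+ libraries 14, 17 and 22 it was 0.47 with 0.04. With all libraries, DESeq2 gave 0.39 (adjusted p = 0.0434) and limma-voom 0.47 (adjusted p = 0.00198). Scaling by library size alone raised the median log2 fold change of all genes to 0.54 for PSCs against S100β-GFP+ cells and to 0.30 for PSCs against the NG2-dsRed+ group, and there Vim lost its call against both, at -0.35 (edgeR adjusted p = 0.128) and -0.24 (edgeR adjusted p = 0.298). Relative to those medians Vim was at -0.88 and -0.54.

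Fibroblast marker RNA went with Vim in a part of the libraries. NG2-dsRed+ libraries 28 and 35 held the highest fibroblast sums of their group, 19271 and 15165 CPM, where the others ran from 2640 to 10924 CPM. The lowest and highest of these others, libraries 2 and 26, had 1070 and 1021 CPM of Vim. All 6 fibroblast markers were lower in PSCs than in either other cell type. Within PSCs the libraries with the lowest and highest fibroblast sums, 20 and 34 at 746 and 2868 CPM, had 850 and 858 CPM of Vim. Within the S100β-GFP+ group libraries 17 and 22 had the lowest Vim, 960 and 982 CPM. Their fibroblast sums of 29339 and 28847 CPM were close to the group's median of 29093. Macrophage markers went with Vim there in part: 6 of 6 were higher in S100β-GFP+ cells than in PSCs, and libraries 17 and 22 had the lowest macrophage sums of their group, 2316 and 1073 CPM. Library 3, with the highest macrophage sum of 10301 CPM, had 1316 CPM of Vim, where library 1 had 1686 CPM. NG2-dsRed+ cells had macrophage sums of only 12.8 to 67.3 CPM and more Vim than PSCs. The part of fibroblast or macrophage RNA in the Vim result was not tested. Over the 27 libraries, which share group and depth, the genes most like Vim were Tmem100, a membrane protein gene (Pearson r of log2 CPM 0.905), Ccdc88a, the gene of the actin-binding protein girdin (r = 0.901), and Ccnl1, a cyclin gene (r = 0.888), each with an r of at least 0.687 within every cell type.

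**Figure D2:**
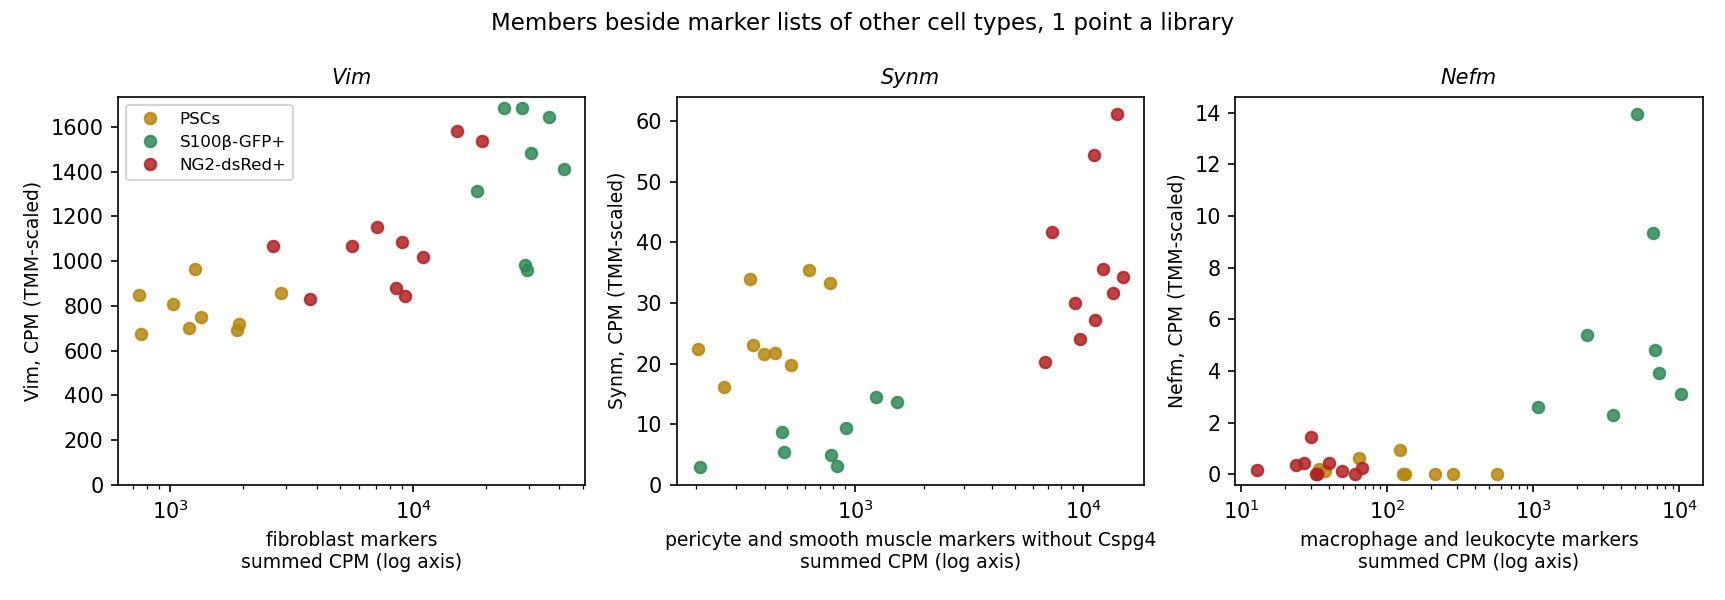
Each panel plots a filament gene (vertical axis, TMM-scaled CPM) against the summed CPM of a marker list (horizontal axis, log scale), 1 point a library, coloured by cell type (9 libraries of PSCs, 8 of S100β-GFP+ and 10 of NG2-dsRed+ cells). The 2 NG2-dsRed+ libraries with the most fibroblast marker RNA were also the highest in Vim at 1538 and 1583 CPM, Synm was 16.1 to 35.5 CPM in PSCs and 2.98 to 14.4 CPM in S100β-GFP+ cells at overlapping sums of the pericyte and smooth muscle list without Cspg4, and the 8 S100β-GFP+ libraries, highest in Nefm, had macrophage and leukocyte sums of 1073 CPM or more.

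Nes (ENSMUSG00000004891, chr3:87971078-87980451, plus strand) encodes nestin, a label of neural progenitors that is also used for terminal Schwann cells, myogenic cells and vessel wall cells. Its lowest, median and highest levels were 24.4, 34.2 and 73.8 CPM in PSCs, 18.1, 37.0 and 52.6 CPM in S100β-GFP+ cells, and 118, 140 and 237 CPM in NG2-dsRed+ cells. Every PSC and every S100β-GFP+ library was below every NG2-dsRed+ library, a pattern that 8.83% and 4.44% of all genes tested shared in these comparisons, while PSCs and S100β-GFP+ cells overlapped widely. Nes was 3.64-fold lower in PSCs than in NG2-dsRed+ cells (log2 fold change -1.86, SE 0.21, edgeR adjusted p = 1.45e-08). It was 3.95-fold lower in S100β-GFP+ cells than in NG2-dsRed+ cells (log2 fold change -1.98, SE 0.22, edgeR adjusted p = 1.87e-08).

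PSCs and S100β-GFP+ cells were not separated in Nes, with a log2 fold change of 0.12, a 95% interval from -0.31 to 0.55 and an edgeR adjusted p of 0.669. With library size alone as the scaling the value was 0.61 (edgeR adjusted p = 0.0226), which is 0.07 above the median of all genes under that scaling. NG2-dsRed+ library 2 had the most Nes, 237 CPM, with the next at 148 CPM, and without it the log2 fold change of PSCs against NG2-dsRed+ cells was -1.69 (edgeR adjusted p = 3.92e-08). That library also held the most Schwann lineage marker RNA of its group, 473 CPM, and the least fibroblast marker RNA, 2640 CPM.

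The pericyte and smooth muscle list, 10 genes, was also highest in NG2-dsRed+ cells. Its sums were 792 to 1488 CPM in PSCs, 242 to 1641 CPM in S100β-GFP+ libraries and 7259 to 15768 CPM in NG2-dsRed+ cells. Without Cspg4 the medians of the list were 397 CPM in PSCs, 805 CPM in S100β-GFP+ libraries and 11218 CPM in NG2-dsRed+ cells. Of its genes 9 of 10 were lower in PSCs than in NG2-dsRed+ cells, and Cspg4, the tenth, was not separated between them (log2 fold change 0.05, edgeR adjusted p = 0.877). Endothelial marker sums were 112 to 552 CPM in PSCs, 127 to 2369 CPM in S100β-GFP+ libraries and 1453 to 3238 CPM in NG2-dsRed+ cells. Of these markers 6 of 6 were lower in PSCs and 5 of 6 lower in S100β-GFP+ libraries than in the last group. Within NG2-dsRed+ cells the order was another. Library 15 had the highest pericyte and endothelial sums, 15768 and 3238 CPM, and the lowest Nes, 118 CPM. The part of pericyte, smooth muscle or endothelial RNA in the Nes result was not tested. The 3 genes with the pattern most like that of Nes over the 27 libraries were Ppp1r12c, a subunit of myosin phosphatase (Pearson r of log2 CPM 0.957), Myl9, the regulatory light chain of smooth muscle myosin (r = 0.955), and Tpm2, beta-tropomyosin (r = 0.948). The libraries share group and depth in these values. Within PSC, S100β-GFP+ and NG2-dsRed+ libraries the r with Nes was 0.689, 0.849 and 0.564 for Ppp1r12c, 0.856, 0.574 and 0.322 for Myl9, and 0.883, 0.719 and 0.313 for Tpm2.

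Synm (ENSMUSG00000030554, chr7:67730160-67759742, minus strand) encodes synemin, which ties vimentin and desmin filaments to adhesion sites. Its lowest, median and highest levels were 16.1, 22.4 and 35.5 CPM in PSCs, 2.98, 7.01 and 14.4 CPM in S100β-GFP+ cells, and 20.3, 32.9 and 61.2 CPM in NG2-dsRed+ cells. Every PSC library and every NG2-dsRed+ library was above every S100β-GFP+ library, while PSCs and NG2-dsRed+ cells overlapped. Of all genes tested, 5.26% had every PSC library above every S100β-GFP+ library, and 4.44% had every S100β-GFP+ library below every NG2-dsRed+ library.

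PSCs had 3.24-fold more Synm RNA than S100β-GFP+ cells (log2 fold change 1.70, SE 0.29, edgeR adjusted p = 1.59e-05). It was 4.62-fold lower in S100β-GFP+ cells than in NG2-dsRed+ cells (log2 fold change -2.21, SE 0.29, edgeR adjusted p = 4.85e-07). Between PSCs and NG2-dsRed+ cells the log2 fold change was -0.51, with a 95% interval from -1.04 to 0.02 and an edgeR adjusted p of 0.113. S100β-GFP+ libraries 17 and 22 had the most Synm of their group, at 13.6 and 14.4 CPM. Without libraries 14, 17 and 22 the log2 fold change of PSCs against S100β-GFP+ cells was 2.38 (edgeR adjusted p = 2.7e-07), and that of S100β-GFP+ against NG2-dsRed+ cells was -2.86 (edgeR adjusted p = 1.97e-08). Because Cspg4 is both a sorted gene and a pericyte marker, the pericyte and smooth muscle list was also summed over its 9 other genes. The lowest, median and highest of these sums were 204, 397 and 773 CPM in PSCs, 208, 805 and 1518 CPM in S100β-GFP+ libraries, with libraries 17 and 22 at 1518 and 1228, and 6769, 11218 and 14913 CPM in NG2-dsRed+ cells. PSCs, with more Synm than S100β-GFP+ cells, had the lower median of these markers, and NG2-dsRed+ cells had the most of both. The part of pericyte RNA in the Synm result was not tested. Synm shares 84 exonic bases with Ttc23 and 426 with Gm45102 on the opposite strand, so a part of its counts could belong to these genes.

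Over the 27 libraries the genes most like Synm were Syde1 (r = 0.899), Cspg4 itself (r = 0.895) and Itga1, the collagen-binding integrin alpha-1 chain (r = 0.891). Cspg4 is the gene on whose transgene the cells were sorted, so it separates the groups by design. Within the 9 PSC libraries Synm and Cspg4 had an r of -0.18, within the 8 S100β-GFP+ libraries 0.816 and within the 10 NG2-dsRed+ libraries 0.413.

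The ratio of these partner proteins' genes is given as a description, with no test. Per kilobase, Synm was at 35.2% to 112% of Nes in PSCs with a median of 51.0%, at 4.76% to 36.7% in S100β-GFP+ libraries with a median of 19.6%, and at 13.1% to 34.5% in NG2-dsRed+ cells with a median of 18.6%. PSCs lay above all NG2-dsRed+ libraries and overlapped a single value at the top of the S100β-GFP+ range. The S100β-GFP+ range reached both below and above that of NG2-dsRed+ cells. As a share of Vim, Nes was at 2.57% to 8.07% in PSCs, 0.792% to 3.96% in S100β-GFP+ libraries and 5.86% to 16.4% in NG2-dsRed+ cells, and Synm at 1.33% to 2.95%, 0.112% to 0.878% and 0.767% to 3.43%.

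**Figure D3:**
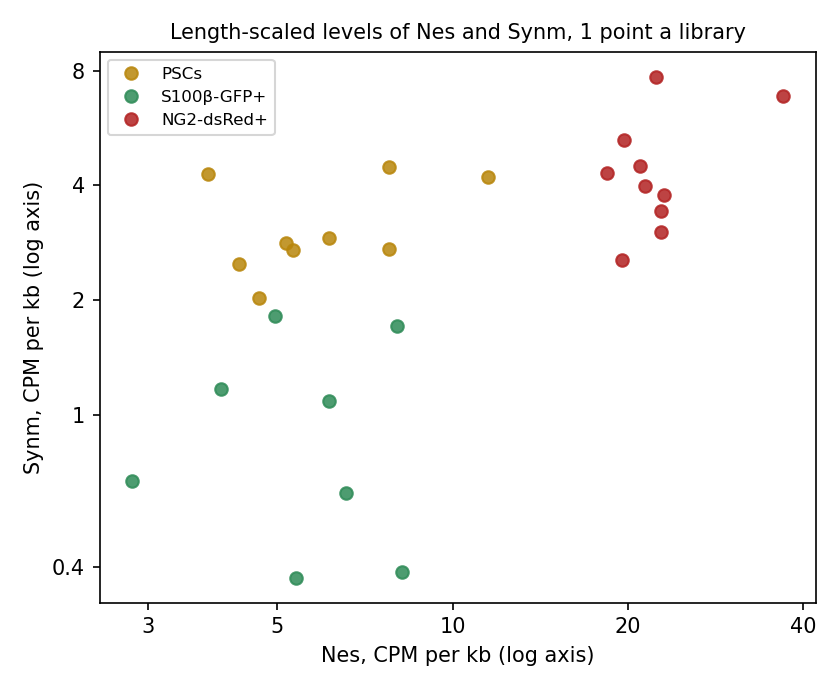
Each point is a library, with Nes on the horizontal and Synm on the vertical axis, both in CPM per kb of exon on log axes. NG2-dsRed+ cells stood apart on the Nes axis (mean 22.8 CPM per kb against 6.27 and 5.76) and S100β-GFP+ cells on the Synm axis (mean 0.983 against 3.18 and 4.54).

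The upstream sequences of Nes and Synm are shown because their levels split the 3 cell types in different ways. RefSeq promoter windows on GRCm38.p6 were matched for 6 members (Gfap, Vim, Nes, Synm, Prph and Ina). Printed are the 250 bases before the start site, 5′ to 3′ on the gene's strand, for Nes at chr3:87970843-87971092 (plus) and for Synm at chr7:67759743-67759992 (minus), with capitals on the motifs found:
Nes: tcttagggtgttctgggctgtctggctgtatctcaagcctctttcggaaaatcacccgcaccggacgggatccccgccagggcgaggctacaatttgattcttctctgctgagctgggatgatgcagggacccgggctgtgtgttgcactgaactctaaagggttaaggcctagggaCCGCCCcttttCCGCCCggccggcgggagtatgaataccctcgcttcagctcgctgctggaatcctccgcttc
Synm: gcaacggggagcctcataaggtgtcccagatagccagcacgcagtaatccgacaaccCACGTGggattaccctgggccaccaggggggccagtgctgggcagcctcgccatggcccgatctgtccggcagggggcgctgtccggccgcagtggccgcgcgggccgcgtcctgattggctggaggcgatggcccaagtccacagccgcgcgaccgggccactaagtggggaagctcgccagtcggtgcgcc

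The motifs searched, on both strands and without overlap between different motifs in these windows, were the SOX core (ACAAAG or ACAATG), the E-box (CANNTG), the GC box (GGGCGG) and the TATA box (TATAAA). The Nes window held 2 GC boxes on the reverse strand, 73 and 62 bases before the start, and the Synm window held 1 E-box 193 bases before it. Among all 32851 windows of this length, 32.7% held a GC box and 66.2% an E-box. Prph and Vim had a TATA box 31 and 32 bases before the start, which 12.4% of all windows held. All 250 bases of the Vim window lay in an exon of an annotated coding transcript, and the annotated gene starts further upstream. The SOX cores, present in 16.5% (ACAAAG) and 10.7% (ACAATG) of all windows, were in none of the 6. These are matches of letters, and no binding was measured.

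Nefm and Nefl encode the medium and light neurofilament subunits and overlap on chromosome 14, Nefm (ENSMUSG00000022054) at chr14:68082590-68124846 on the minus strand and Nefl (ENSMUSG00000022055) at chr14:68083863-68089095 on the plus strand. The annotation gives them 1108 shared exonic bases on opposite strands, and it is not known here whether strand was used in counting, so reads there cannot be told apart. Both were highest in S100β-GFP+ cells.

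Nefm had 256 counts over the 8 S100β-GFP+ libraries, 13 to 63 in each, against 19 counts over the 9 PSC libraries, of which 5 were at 0, and 21 counts over the 10 NG2-dsRed+ libraries, of which 3 were at 0. Its lowest, median and highest levels in S100β-GFP+ cells were 2.28, 4.36 and 13.9 CPM, while its highest were 0.951 CPM in PSCs and 1.45 CPM in NG2-dsRed+ cells. Every S100β-GFP+ library was above every other library, as for 10.3% of all genes tested against PSCs and 7.15% against NG2-dsRed+ cells. Nefm was 23.1-fold lower in PSCs than in S100β-GFP+ cells (log2 fold change -4.53, SE 0.75, edgeR adjusted p = 1.11e-05). It was 16.9-fold higher in S100β-GFP+ than in NG2-dsRed+ cells (log2 fold change 4.07, SE 0.72, edgeR adjusted p = 4.2e-05). Nefm passed the filter only through the S100β-GFP+ libraries, so its calls and its lack of overlap against that group are descriptions. The size of these differences depended on the fit. Their calls were kept in each fit, which adds no support for the same reason. With each library's share on Lars2, Gm23935 and Gm15564 in the model, Nefm was at -6.69 between PSCs and S100β-GFP+ cells (edgeR adjusted p = 5.7e-08) and at 4.75 between S100β-GFP+ and NG2-dsRed+ cells (edgeR adjusted p = 3.33e-07). Leaving out single libraries moved the first from -5.22 (without PSC library 20) to -4.21, and the second reached 4.74 without NG2-dsRed+ library 35 (edgeR adjusted p = 9.09e-06).

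PSCs and NG2-dsRed+ cells were not separated in Nefm, at 0.213 ± 0.344 and 0.324 ± 0.431 CPM (log2 fold change -0.46, 95% interval -2.04 to 1.12, edgeR adjusted p = 0.668). This value rested on few counts: without NG2-dsRed+ library 35, which held 9 of the 21 counts, it was 0.27 (edgeR adjusted p = 0.806), and with each library's share on the 3 genes Lars2, Gm23935 and Gm15564 in the fit it was -1.94 (edgeR adjusted p = 0.0442).

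Nefl was below the filter. It had 99 counts over the 8 S100β-GFP+ libraries, 5 to 27 in each (1.12 to 4.2 CPM, median 1.57), 28 counts in 5 of 9 PSC libraries and 6 counts in 2 of 10 NG2-dsRed+ libraries. The S100β-GFP+ libraries again did not overlap the other groups, whose highest values were 0.785 CPM in PSCs and 0.532 CPM in NG2-dsRed+ cells. Among genes that passed the filter, which leave out Nefl, 10.3% had this pattern against PSCs and 7.15% against NG2-dsRed+ cells. The share among genes below the filter was not computed. In a fit without the filter, which called 37% of 44705 genes between PSCs and S100β-GFP+ cells and 23.7% between S100β-GFP+ and NG2-dsRed+ cells, Nefl was 6.09-fold lower in PSCs than in S100β-GFP+ cells (log2 fold change -2.61, SE 0.80, edgeR adjusted p = 0.0127). The log2 fold change of S100β-GFP+ against NG2-dsRed+ cells was 4.25 (SE 0.88, edgeR adjusted p = 0.00034). The medians of all genes in that fit were -0.97 and 0.78, and relative to these Nefl was at -1.64 and 3.47. Without NG2-dsRed+ library 13 or 26, which held all 6 counts of that group, the second value was 4.99 or 4.87.

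Ina (ENSMUSG00000034336, chr19:47014698-47025327, plus strand) encodes internexin, a further subunit of neurofilaments. It had 43 counts over all 8 S100β-GFP+ libraries, 14 in 4 of 9 PSC libraries and 2 in 2 of 10 NG2-dsRed+ libraries, and the groups overlapped. The ratio of the level in S100β-GFP+ to that in NG2-dsRed+ cells was 25.5 with an exact 95% counting interval from 6.63 to 217, and the unfiltered fit called this difference (edgeR adjusted p = 0.00193). That fit did not separate PSCs from S100β-GFP+ cells (log2 fold change -2.14, 95% interval -3.95 to -0.33, edgeR adjusted p = 0.0567). This missed the threshold narrowly and not in every setting: it passed with a mean count of 5 as the filter (-2.16, edgeR adjusted p = 0.0238) and, without a filter, when PSC library 12 or 34 or S100β-GFP+ library 1 was left out (edgeR adjusted p = 0.0404, 0.033 and 0.0448), but not with DESeq2 (-2.28, adjusted p = 0.05002). Ina shares 456 exonic bases with Nt5c2, a widely used nucleotidase gene on the opposite strand that had 20 to 221 counts per library.

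Nefh, the heavy neurofilament subunit and not a member, had 11 counts in PSCs, 21 in S100β-GFP+ libraries and 2 in NG2-dsRed+ cells and was not tested. Neuron and axon markers were looked at beside the neurofilament genes. The sum of 12 such markers was 85.6 to 137 CPM in PSCs, 55.5 to 132 CPM in S100β-GFP+ libraries and 43.2 to 77.4 CPM in NG2-dsRed+ cells. It was carried by different genes in each: Map2, a microtubule-associated protein, by 94.0 CPM in PSCs against 4.35 and 20.4, Gap43, a growth-associated protein that Schwann cells also make, by 56.8 CPM in S100β-GFP+ cells against 5.35 and 0.712, and Stmn2 by 34.4 CPM in NG2-dsRed+ cells against 5.37 and 6.82. Of the 5 markers tested, 1 was higher and 2 lower in PSCs than in S100β-GFP+ cells. Of the others, Uchl1, a neuronal ubiquitin hydrolase, was at 0.581, 10.9 and 1.36 CPM in PSCs, S100β-GFP+ and NG2-dsRed+ libraries, Elavl4, an RNA-binding protein of neurons, had 7, 63 and 5 counts, and Syt1, a synaptic vesicle protein, had 12, 35 and 9. Gap43, Uchl1, Elavl4 and Syt1 were thus highest in the cells that had the most Nefm. Rbfox3 had 19, 69 and 69 counts, Snap25 43, 26 and 8, and Isl1 15, 17 and 12, while Tubb3 was at 1.40, 2.14 and 1.05 CPM. The markers of mature motor neurons were at or near 0, with no count of Chat in PSCs or NG2-dsRed+ cells and 8 counts over the S100β-GFP+ libraries, and with 3, 6 and 1 counts of Slc18a3.

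Macrophage and leukocyte markers separated the groups as Nefm did, with 6 of 6 higher in S100β-GFP+ cells than in PSCs, and sums of 12.8 to 67.3 CPM in NG2-dsRed+ cells. Their order within the S100β-GFP+ libraries was another: Nefm was highest in library 33, 13.9 CPM, and library 27, 9.36 CPM, which had macrophage sums of 5103 and 6603 CPM, while library 3, with the highest macrophage sum of 10301 CPM, had 3.11 CPM of Nefm. Library 33 was also highest in Nefl, 4.2 CPM, in Ina, 2.21 CPM, and in the Schwann lineage sum, 2070 CPM. Library 27 had a Schwann lineage sum of 703 CPM, near the lowest of the group, 673 CPM. Over all 27 libraries the genes most like Nefm were Ncf4, a subunit of the phagocyte NADPH oxidase (r = 0.922), Camk1d, a calcium/calmodulin-dependent kinase (r = 0.918), and Mx1, an interferon-induced GTPase (r = 0.915), all at r of 0.402 or lower within the S100β-GFP+ group. Within PSCs their r was 0.786, 0.391 and 0.79, and within NG2-dsRed+ cells 0.565 for Ncf4 and 0.745 for Camk1d, with Mx1 between them. The part of macrophage, fibroblast or axon RNA in the neurofilament results was not tested. Without libraries 14, 17 and 22 the Nefm log2 fold change of PSCs against S100β-GFP+ cells was -4.77 (edgeR adjusted p = 4.07e-05).

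Prph (ENSMUSG00000023484, chr15:99055174-99058978, plus strand) encodes peripherin, a filament protein of peripheral neurons. Its pattern differed from that of the neurofilament subunits: it had 119 counts over all 10 NG2-dsRed+ libraries (0.282 to 3.37 CPM, median 1.78), 49 counts in 7 of 8 S100β-GFP+ libraries (0 to 3.05 CPM, median 1.07) and 16 counts in 5 of 9 PSC libraries (0 to 0.624 CPM). PSCs had the lowest levels, and the groups overlapped. In the fit without the filter, which called 18.1% of genes between PSCs and NG2-dsRed+ cells, Prph was 8.15-fold lower in PSCs than in NG2-dsRed+ cells (log2 fold change -3.03, SE 0.72, edgeR adjusted p = 0.00144). Against S100β-GFP+ cells it was 5.01-fold lower in PSCs (log2 fold change -2.32, SE 0.74, edgeR adjusted p = 0.0154), or -1.35 relative to the median of all genes. S100β-GFP+ libraries 14, 17 and 22 held 8, 13 and 7 of the 49 counts of their group. Without library 17 the log2 fold change was -1.93 (edgeR adjusted p = 0.0436). A value without these libraries together is not given here. S100β-GFP+ and NG2-dsRed+ cells were not separated (log2 fold change -0.70, 95% interval -2.05 to 0.64, edgeR adjusted p = 0.436). Of the 5 neuron markers tested, 2 were higher (Map2 and Gap43) and 1 was lower (Stmn2, which regulates microtubules in growing axons) in PSCs than in the NG2-dsRed+ group.

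Gfap (ENSMUSG00000020932, chr11:102887336-102900912, minus strand) encodes the filament protein used as a label of astrocytes and non-myelinating Schwann cells. It was at trace level everywhere, with 27 counts in 6 of 9 PSC libraries, 30 counts in 7 of 8 S100β-GFP+ libraries and 12 counts in 3 of 10 NG2-dsRed+ libraries. The levels were 0.300 ± 0.319, 0.646 ± 0.71 and 0.168 ± 0.338 CPM, and no group stood apart. Library 30 held 7 of the 12 NG2-dsRed+ counts, and without it that mean was 0.0769 CPM. Without libraries 14, 17 and 22 the S100β-GFP+ mean was 0.339 CPM, near that of PSCs. The fit without the filter separated none of the pairs (edgeR adjusted p = 0.431 for PSCs against S100β-GFP+ cells, 0.655 for PSCs against NG2-dsRed+ cells and 0.169 between the last groups), with 95% intervals of the log2 fold change from -2.86 to 0.95, from -1.06 to 2.65 and from -0.17 to 3.68. Per kilobase Gfap was at 0.0712 ± 0.0756 CPM in PSCs, where Vim was at 164 ± 20.6. No difference in Gfap was detected in these libraries, and the wide intervals do not exclude one.

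**Figure D4:**
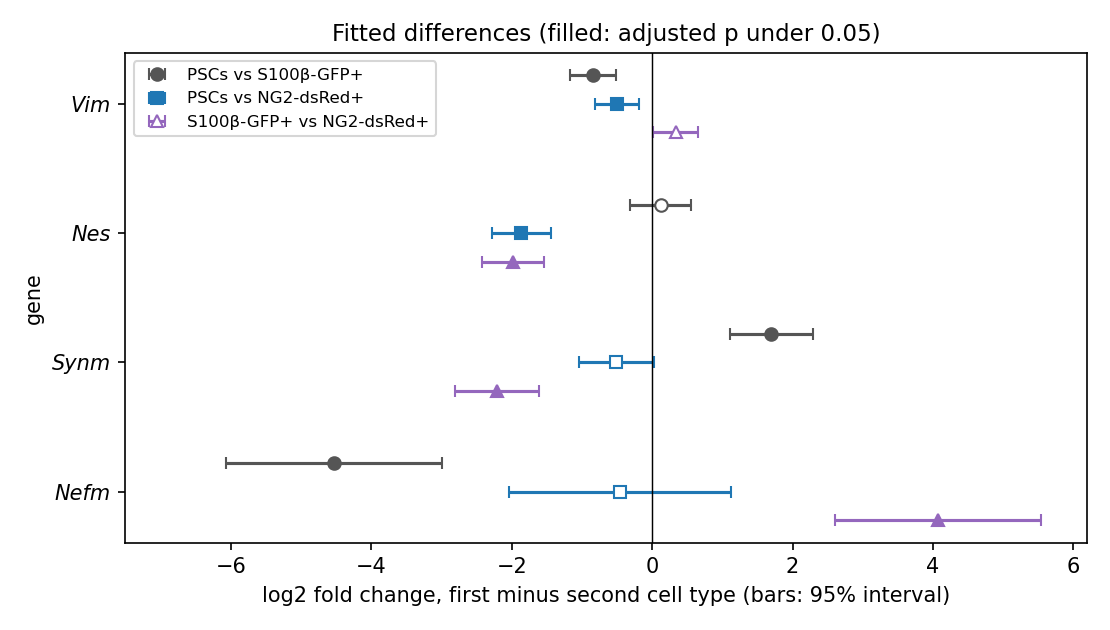
The plot gives the log2 fold change (horizontal axis, first minus second cell type) of the 4 members that passed the filter, with 95% intervals from the edgeR fit and filled symbols for an adjusted p under 0.05. Nes was separated only in the comparisons with NG2-dsRed+ cells (-1.86 and -1.98) and Synm and Nefm only in those with S100β-GFP+ cells (1.70 and -2.21, and -4.53 and 4.07).

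The filament system has further parts: other filament proteins, the nuclear lamins, cytolinkers that tie filaments to each other and to the cell surface, and the chaperones and enzymes that act on filaments. Of 33 such genes listed, 32 were in the table and 19 passed the filter. Between PSCs and S100β-GFP+ cells 6 were higher and 7 lower in PSCs, beside 47% of all genes called, with a median log2 fold change of -0.63 beside 0.04 over all genes tested. Between PSCs and NG2-dsRed+ cells 9 were higher and 5 lower in PSCs (median 0.33, all genes 0.02), beside 44% of all genes called, and between S100β-GFP+ and NG2-dsRed+ cells 8 were higher and 4 lower in S100β-GFP+ cells (median -0.04, all genes -0.02), beside 33.3% of all genes called. The balance of directions moved with the processing: against S100β-GFP+ libraries it was 9 higher and 6 lower in PSCs with library size only, 6 and 13 with DESeq2 (28 genes tested) and 6 and 15 without a filter (32 tested). Over all genes these settings called 6762 and 2440 of 15330, 3759 and 5573 of 25812, and 3907 and 12649 of 44705. Between PSCs and NG2-dsRed+ cells the balance was 7 and 7 without a filter (all genes 3751 and 4350). Between S100β-GFP+ and NG2-dsRed+ cells it was 7 and 7 with library size only (all genes 2062 and 3758).

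Des encodes desmin, the muscle filament protein with which nestin and synemin can assemble, and its order of groups was that of Nes. It was at 17.8 ± 14.2 CPM in PSCs, 14.0 ± 8.00 in S100β-GFP+ libraries and 102 ± 29.8 in NG2-dsRed+ cells, whose libraries were all above the others, as for 8.83% of all genes tested against PSCs and 4.44% against S100β-GFP+ libraries. The log2 fold change of PSCs against NG2-dsRed+ cells was -2.52 (SE 0.35, edgeR adjusted p = 6.09e-07) and against S100β-GFP+ cells 0.34 (95% interval -0.38 to 1.05, edgeR adjusted p = 0.454). Besides Des, the filament genes that differed between PSCs and another cell type were Krt19, Krt80, Krt10 and Bfsp1, all with group means under 16 CPM. Krt10 was higher in PSCs than in both others, Krt19 lower than in both, Krt80 lower than in S100β-GFP+ cells and Bfsp1 higher than in NG2-dsRed+ cells. The Bfsp1 call came from PSC library 18, with 84 of the 165 PSC counts and 14.7 CPM, where the medians were 0.761 CPM in PSCs and 0.896 CPM in NG2-dsRed+ cells. Without that library Bfsp1 was at 0.42 against NG2-dsRed+ cells (edgeR adjusted p = 0.403) and at -2.09 against S100β-GFP+ cells (edgeR adjusted p = 0.000115). Krt80 and Bfsp1 passed the filter mainly through the S100β-GFP+ libraries, so their calls against that group are descriptions.

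Cytolinkers moved in opposite directions in PSCs. Dst, which encodes dystonin, a linker of filaments to microtubules and actin, was at 722 ± 191 CPM in PSCs, 187 ± 47.7 in S100β-GFP+ libraries and 284 ± 39.9 in NG2-dsRed+ cells (log2 fold changes 1.95 and 1.35, edgeR adjusted p = 1.44e-09 and 2.91e-07). Macf1, which encodes its close relative, was at 66.3 ± 14.6, 198 ± 32.4 and 250 ± 32.6 CPM, and every PSC library was below every other library, as for 10.3% and 8.83% of all genes tested (log2 fold changes -1.58 and -1.91, edgeR adjusted p = 2.83e-10 and 4.54e-12). Plec, the gene of plectin, a versatile cytolinker, was also lower in PSCs than in S100β-GFP+ cells (-0.96, edgeR adjusted p = 3.41e-05) and NG2-dsRed+ cells (-1.29, edgeR adjusted p = 2.18e-07). Ppl and Syne3 were higher in S100β-GFP+ cells than in PSCs, with Ppl at 1.04, 17.6 and 1.34 CPM in the 3 groups. The Ppl call is a description, since its level in S100β-GFP+ cells carried it past the filter.

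**Figure D5:**
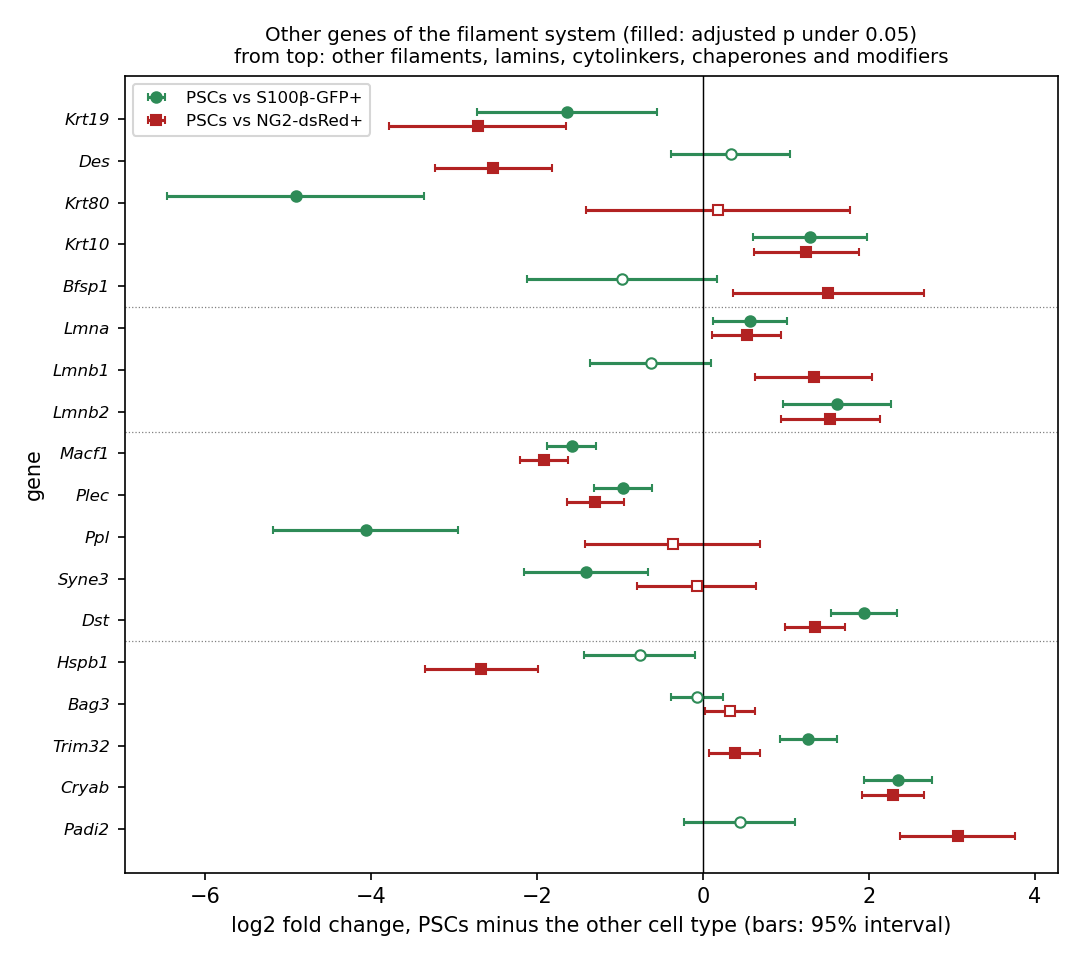
The plot gives the log2 fold change (horizontal axis, PSCs minus the other cell type, with 95% intervals from the edgeR fit) of 18 of the 19 other filament system genes that passed the filter, in families from top to bottom. Cryab (2.35 and 2.29) and Dst (1.95 and 1.35) were on the PSC side in both comparisons, and Macf1 (-1.58 and -1.91) and Plec (-0.96 and -1.29) on the other side in both.

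Among chaperones and modifiers, Cryab (alpha-B-crystallin, a chaperone that binds desmin, vimentin and GFAP filaments) was at 332 to 944 CPM in PSCs with a median of 435, against 52.2 to 138 CPM in S100β-GFP+ libraries and 79.0 to 130 CPM in NG2-dsRed+ cells. Every PSC library was above every other library, as for 5.26% and 5.06% of all genes tested, and Cryab was 5.10-fold and 4.90-fold higher in PSCs (edgeR adjusted p = 6.31e-11 and 2.34e-11). Hspb1, a related small heat shock protein gene, had another order, with 42.1 ± 14.2 CPM in PSCs, 71.4 ± 53.4 in S100β-GFP+ libraries and 269 ± 109 in NG2-dsRed+ cells. It was lower in PSCs than in NG2-dsRed+ cells (log2 fold change -2.67, edgeR adjusted p = 1.2e-07). Against S100β-GFP+ cells Hspb1 was at -0.76 in PSCs (edgeR adjusted p = 0.0568). That passed without PSC library 31 or S100β-GFP+ library 3, 11, 27 or 33 (edgeR adjusted p = 0.0257 to 0.045). Trim32, a ubiquitin ligase that acts on desmin, had more RNA in PSCs than in S100β-GFP+ cells (1.27, edgeR adjusted p = 2.47e-07) and NG2-dsRed+ cells (0.38, edgeR adjusted p = 0.042). With all libraries Bag3, a co-chaperone, was separated only between S100β-GFP+ and NG2-dsRed+ cells (0.40, edgeR adjusted p = 0.042). Between PSCs and NG2-dsRed+ cells Bag3 was at 0.33 (edgeR adjusted p = 0.0705). That passed without PSC library 12, 18, 34 or 36 (edgeR adjusted p = 0.012 to 0.0442). It also passed without S100β-GFP+ library 11 or NG2-dsRed+ library 2, 28 or 35 (edgeR adjusted p = 0.0207 to 0.026). Without the filter Trim32 between PSCs and NG2-dsRed+ cells and Bag3 between S100β-GFP+ and NG2-dsRed+ cells were not past the test (edgeR adjusted p = 0.17 and 0.127). The Trim32 call was also lost without any 1 of 9 libraries (edgeR adjusted p = 0.0528 to 0.0733; PSC libraries 6, 23 and 31 and NG2-dsRed+ libraries 7, 9, 15, 21, 26 and 30). The Bag3 call was lost without any 1 of 10 (edgeR adjusted p = 0.0544 to 0.116; S100β-GFP+ libraries 14, 17, 27 and 33 and NG2-dsRed+ libraries 7, 9, 13, 15, 21 and 26).

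The lamins, the filament proteins of the nucleus, were each higher in PSCs than in at least 1 other cell type with all libraries. Lmna was at 542 ± 227 CPM in PSCs, 364 ± 136 in S100β-GFP+ libraries and 377 ± 58.7 in NG2-dsRed+ cells (log2 fold changes 0.57 and 0.53, edgeR adjusted p = 0.0307 and 0.0356), and the latter was not past the test without the filter (edgeR adjusted p = 0.0679). Both Lmna calls were lost without PSC library 18 (edgeR adjusted p = 0.0548 and 0.0545). The first was also lost without S100β-GFP+ library 14, 17 or 22, and the second without NG2-dsRed+ library 7, 9, 15 or 21 (edgeR adjusted p = 0.0559 to 0.0705 over these). Lmnb2 was at 18.1 ± 9.01, 5.87 ± 2.51 and 6.22 ± 2.13 CPM (1.62 and 1.54, edgeR adjusted p = 0.000102 and 7.59e-05). Lmnb1 was higher in PSCs than in NG2-dsRed+ cells (1.33, edgeR adjusted p = 0.00225) and was not separated from S100β-GFP+ cells (-0.63, 95% interval -1.36 to 0.10, edgeR adjusted p = 0.153). PSC and other libraries overlapped in all 3 genes.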

How the data were processed

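RNA-seq counts per gene were analysed for 27 libraries of FACS-sorted mouse cells. The authors trimmed the reads, aligned them and counted them per gene, and deposited whole-number counts without normalization. The submitters' processing notes name HISAT2, HTSeq and GRCm38, with versions and strand use not given in the sources used here. Of 52636 identifiers 52489 were in GENCODE M21, the source of symbols and positions. Columns were assigned by library number, and 9 of 36 labelled libraries were not analysed here. No pair of replicates agreed within sampling noise (lowest chi-square over its degrees of freedom 8.92).

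In R 4.3.3, edgeR 4.0.16 (TMM, filterByExpr with a minimum count of 10, a quasi-likelihood fit of the 3 cell types, Benjamini-Hochberg over 15330 genes, threshold 0.05) gave fold changes. Fold changes are on the log2 scale, and log2 CPM for correlations used a prior count of 2. The processing was tested on simulated data. The members and gene lists were chosen with earlier results of these data known. Named are the members, the up to 12 most abundant other filament system genes that passed the test with Nefh and Des, the 3 genes most like each tested member, and markers set beside a result. A gene that this rule named is not reported here, though the counts include it. Krt10, Krt19, Krt80, Bfsp1, Ppl, Syne3, Padi2, Krt20 and Sync were named after their values were seen. Alternatives were DESeq2 1.42.0, its size factors, library size only, 2 other filters, limma-voom (limma 3.58.1), the share of counts on 3 genes as a term, a 2-fold test, only the compared groups, and libraries left out. Leaving out single libraries for each other filament gene and for the members below the filter, and the pericyte sum without Cspg4, were added after seeing the data. Intervals cover counting error or the spread between libraries only, and copies made by PCR count as separate reads. Figures were drawn in Python 3.11.15.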

Additional observations from a re-analysis of the deposited data

Results flagged for a closer look

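Over 24 groups of values (8 genes in 3 cell types), 3 held a library far from the rest of its group by Dixon's test, which flags about 1 in 20 groups by chance. Nes in NG2-dsRed+ library 2 was at 237 CPM (1680 counts), with the next library at 148 CPM. Without that library the NG2-dsRed+ mean was 136 CPM, and the log2 fold change of PSCs against NG2-dsRed+ cells was -1.69 where it had been -1.86. Nefm in NG2-dsRed+ library 35 was at 1.45 CPM (9 counts), with the next at 0.454 CPM, and without it the NG2-dsRed+ mean fell to 0.199 CPM and the log2 fold change of PSCs against NG2-dsRed+ cells turned from -0.46 to 0.27, neither past the test. Prph in S100β-GFP+ library 17 was at 3.05 CPM (13 counts), with the next at 1.41 CPM, and without it the S100β-GFP+ mean was 0.847 CPM.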

How the results depend on the processing

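No paired analysis was possible because the sources used here do not name the mouse of each library. Whether libraries of different cell types came from the same mouse is not known. The count of members past the test between PSCs and S100β-GFP+ cells (3 of 4) became 5 of 8 with DESeq2, 5 of 8 without a filter and 6 of 7 with a mean count of 5 as the filter. Over all genes, DESeq2 called 3759 higher and 5573 lower of 25812. The fit without a filter called 37% of 44705, and the mean count filter 3850 higher and 4629 lower of 18865. Between PSCs and NG2-dsRed+ cells (2) the count of members became 1 with library size only (5120 higher and 2721 lower of all 15330 genes). It became 1 in the test against a 2-fold change, and 1 to 2 when single libraries were left out (1 without NG2-dsRed+ library 28 or 35). Between S100β-GFP+ and NG2-dsRed+ cells (3) it became 6 with DESeq2, 5 without a filter and 5 with the mean count filter. Over all genes, DESeq2 called 4187 higher and 2270 lower of 24953. The fit without a filter called 23.7%, and the mean count filter 3463 higher and 2489 lower of 18865. Other filament system genes past the test against S100β-GFP+ cells (13) became 21 of 32 without a filter (37% of all genes) and 7 in the 2-fold test. Against NG2-dsRed+ cells (14) they became 7 in the 2-fold test. The fold change of Nefm in PSCs against NG2-dsRed+ cells (-0.46) ran from -1.13 to 0.27 when single libraries were left out and reversed only without NG2-dsRed+ library 35. For the 4 tested members, leaving out single libraries otherwise kept the direction of each fold change. Among the other filament system genes, some fold changes that were not past the test turned. Des between PSCs and S100β-GFP+ cells, for example, went from 0.34 to -0.03 without PSC library 18. The counts of calls that moved by more than 1.5 times are those given above, 11 under alternatives and 2 with single libraries left out. The other 49 and 160 were within that limit, by which they were sorted. More members are tested when the filter is looser, and the other causes were not tested. Among all genes called, the share higher in PSCs went from 48.8% to 73.5% against S100β-GFP+ cells and from 47.4% to 65.3% against NG2-dsRed+ cells with library size only, and the share higher in S100β-GFP+ cells from 54.3% to 35.4%. Without a filter, 16556 genes were called between PSCs and S100β-GFP+ cells where 7198 had been, and 10586 between S100β-GFP+ and NG2-dsRed+ cells where 5099 had been, with shares higher of 23.6% and 77.4%. Of all 15330 genes, the 2-fold test called 947 higher and 1870 lower, 1084 and 1718, and 1194 and 608 in the 3 comparisons. Vim failed the 2-fold test against both other cell types. Gfap, Nefl, Ina and Prph rest on at most 27 counts per library, which limits what can be seen in them.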

Other observations

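Genes of the filament system outside the naming rule gave further values. Padi2, a peptidylarginine deiminase that modifies filament proteins, was at 15.2 ± 4.47 CPM in PSCs, 11.1 ± 5.16 in S100β-GFP+ libraries and 1.77 ± 1.04 in NG2-dsRed+ cells. Every PSC and every S100β-GFP+ library was above every NG2-dsRed+ library in Padi2, as for 5.06% and 7.15% of all genes tested (log2 fold changes 3.07 and 2.63, edgeR adjusted p = 1.26e-08 and 3.88e-07), and PSCs and S100β-GFP+ cells were not separated (0.45, 95% interval -0.22 to 1.11, edgeR adjusted p = 0.273). Krt80, a keratin gene, was at 15.8 ± 10.1 CPM in S100β-GFP+ cells against 0.537 ± 0.895 in PSCs and 0.449 ± 0.407 in NG2-dsRed+ cells (log2 fold change of PSCs against S100β-GFP+ cells -4.91, edgeR adjusted p = 3.53e-06, and -5.83 without PSC library 31). Its level in S100β-GFP+ cells carried it past the filter, so this call is a description. Krt20 had 82 counts over the S100β-GFP+ libraries, 4 over the PSC and 2 over the NG2-dsRed+ libraries, and Sync, whose product binds desmin, had 103, 48 and 56, and both were below the filter.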
